A study of Drosophila melanogaster with 6 samples.

Results

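The UDP-glycosyltransferase (Ugt) genes of *Drosophila melanogaster* were followed in embryos carrying a mutant allele of Insensitive (insv) and in wild-type embryos. The family was taken as every gene with a current symbol of Ugt followed by a digit and a probe set carrying that symbol alone. This gave 35 genes out of 11982 genes on the array with a probe set of 1 symbol. A gene with several probe sets would have kept the one selected on its mean level over the arrays, but each of the 35 had 1, and none was removed. The symbols themselves rest on no measured value. The family was nevertheless chosen with its difference between the genotypes known from earlier results, so the values below describe its members and give no evidence that the family as a whole stands apart.

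The mutant group held 3 arrays of embryos with the insv[23B] allele. The wild-type group held 3 arrays of w[1118] embryos, a laboratory strain with a mutation of the eye colour gene white. Whole embryos aged 6 to 8 h were used in both groups, with flies and embryos kept at 25 °C, and total RNA was read on the Affymetrix Drosophila Genome 2.0 array. Insv is a BEN-domain protein that acts as a transcriptional repressor in the nervous system. The lesion in insv[23B], whether the embryos were all homozygous, and whether the white mutation was shared by both stocks are not given in the sources used here.

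Ugt enzymes sit in the membrane of the endoplasmic reticulum and move a sugar, in insects mostly glucose, from a UDP-sugar to small lipophilic molecules, which become soluble enough to be exported. They act on plant toxins, insecticides, odorants, pigments and hormones, and in adult flies and larvae many of them are expressed in the gut, the Malpighian tubules, the fat body or the antennae. The genes arose by repeated duplication, many lie side by side, and the number in each symbol names the subfamily.

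The targeted gene checked the labels. The insv probe set read 4.0, 3.6 and 4.2 on the mutant arrays, against 10.9 on each wild-type array (log2 level), a difference of -6.97 ± 0.16 (SE, limma adjusted p = 3.26e-06). The authors' values are GCRMA levels on the log2 scale, given to 1 decimal, with a floor at 2.2 that marks no signal above background. Between 8295 and 8312 probe sets reached a level of 4 on a mutant array, and between 7821 and 7883 on a wild-type array. All 23 Bacillus probe sets, which read spike-in control RNA, lay lower on every mutant array than on any wild-type array, with a median difference of -1.43 (range -1.77 to -0.90). Of the 18 hybridization control probe sets, 16 lay lower in the same way, with a smaller median difference of -0.55 (range -1.80 to -0.17). The arrays of each genotype may also have shared their collection, labelling or hybridization, and such shared handling and genotype cannot be told apart.

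More Ugt genes were higher in the mutant than lower, and the differences at both ends were large. A mean difference of at least 2-fold was found for 8 of the 35 genes upward (22.9%), while 8.66% of all genes lay that far up. It was found for 2 genes downward (5.71%), while 2.05% of all genes lay that far down. On 14 genes (40.0%) every mutant array stood above every wild-type array, as it did for 18.0% of all genes, and on 3 genes (8.57%) every mutant array stood below, as it did for 24.8% of all genes. The median difference over the 35 genes was nevertheless 0.03 on the log2 scale, next to 0 over all genes, because 12 members (34.3%) lay at the floor on all 6 arrays. Floor readings on all arrays were found for 28.7% of all genes. These are whole embryos, so fewer cells expressing a gene and less RNA per cell cannot be told apart in any of these values.

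**Figure D1:**
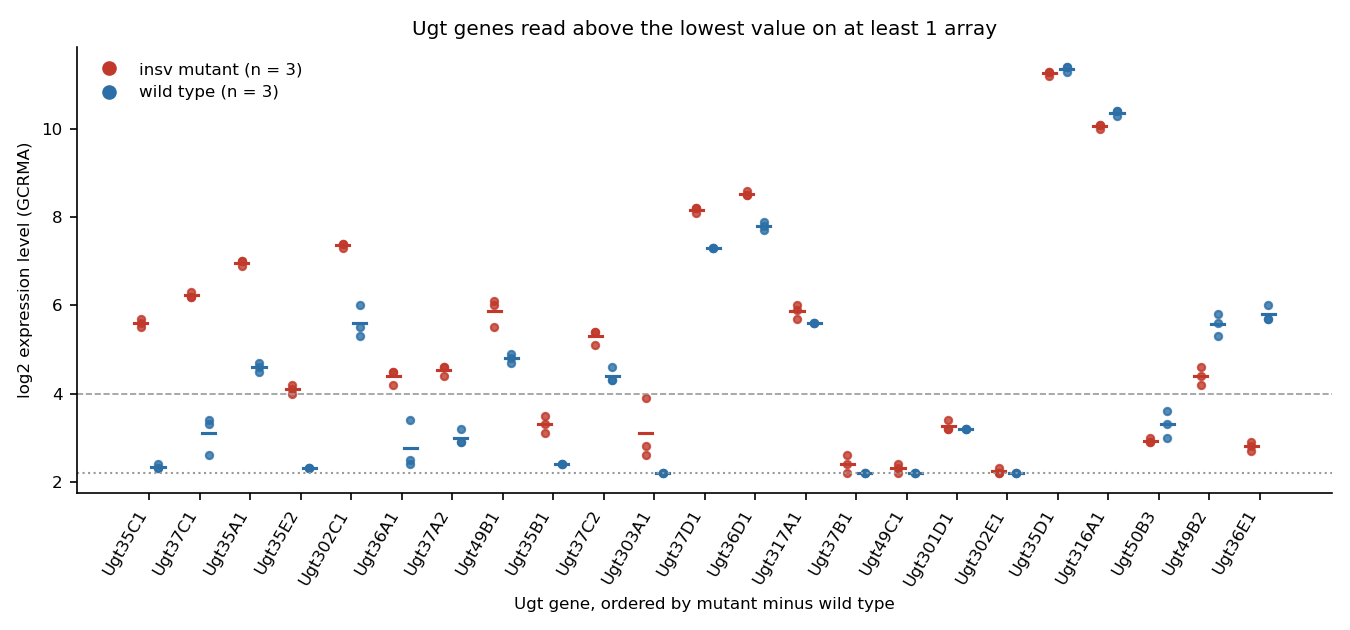
Log2 GCRMA level (vertical axis) of the 23 Ugt genes that read above the floor on at least 1 array, ordered by mutant minus wild type. Red points are the 3 insv mutant arrays and blue points the 3 wild-type arrays, horizontal marks are means, the dashed line is the filter level of 4 and the dotted line the floor of 2.2; the mutant stands above wild type at the left end (Ugt35C1) and below it at the right end (Ugt36E1).

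Only probe sets that reached a level of 4 on 3 or more of the 6 arrays were tested. Of the 35 genes, 16 passed this filter (45.7%, next to 57.9% of all genes), and 19 did not. In the limma fit over all tested probe sets, with an adjusted p under 0.05 as the threshold, 12 of the 16 were higher in the mutant, 3 were lower and 1 was not called. Among all 6932 genes tested, 24.9% were higher and 41.7% lower, with a median difference of -0.13. The filter shaped the count of Ugt genes, since 5 of them passed it through mutant arrays only and 1 through wild-type arrays only, and a gene that passes in this way has to differ. The remaining 10 reached the level of 4 in both genotypes, with 7 higher, 2 lower and 1 not called. Of the 6309 genes that reached 4 on all 6 arrays, 19.3% were higher and 44.6% lower.

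**Figure D2:**
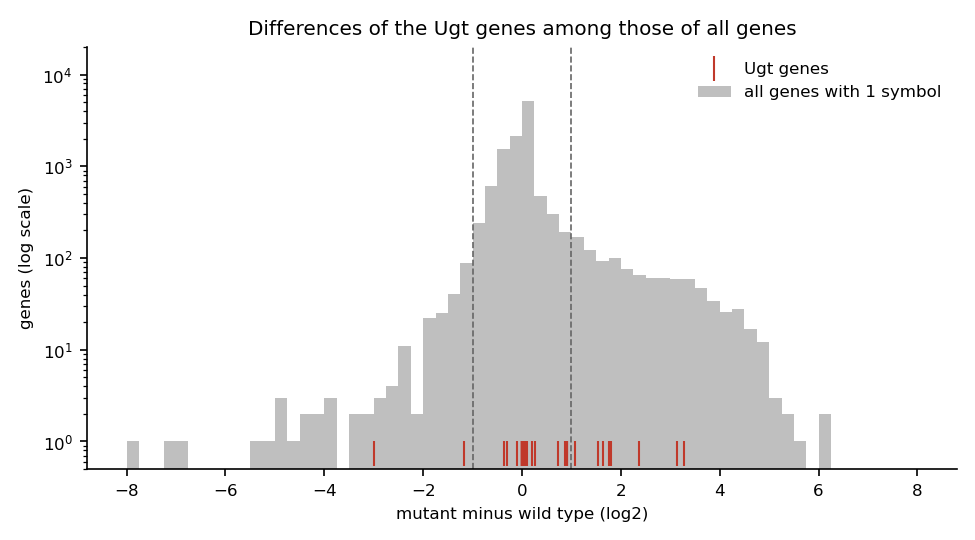
Number of genes (log scale) against mutant minus wild type (log2) for the 11982 genes with a probe set of 1 symbol (grey bars), with each Ugt gene marked by a red line; dashed lines mark a 2-fold difference each way. Ugt genes lie beyond the right line 8 times and beyond the left line 2 times, from -3.00 to 3.27.

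The largest difference belonged to Ugt35C1, known before as Ugt86Dd, a gene whose natural variation has been linked to nicotine resistance in larvae. It read 5.7, 5.6 and 5.5 in the mutant, against 2.4, 2.3 and 2.3 in wild type. The wild-type arrays thus lay next to the floor and every mutant array lay well above it. The difference was 3.27 ± 0.06 (SE, adjusted p = 2.17e-06), or 9.62-fold on the deposited scale. The size of a fold change from a level so near the floor is uncertain. Ugt37C1, for which no substrate is stated here, came next with 6.2, 6.3 and 6.2 in the mutant, against 2.6, 3.3 and 3.4 in wild type. The groups were again far apart, although the wild-type arrays spread more (3.10 ± 0.44, SD, n = 3) than the mutant arrays (6.23 ± 0.06, SD, n = 3). Its difference was 3.13 ± 0.22 (SE, adjusted p = 0.000184). Both Ugt35C1 and Ugt37C1 passed the filter described above through mutant arrays only and so had to differ.

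The other members of subfamily 35 that passed the test were Ugt35A1 and Ugt35E2. Ugt35A1 (older names Ugt35a and Ugt86Df) read 7.0, 7.0 and 6.9 in the mutant, against 4.7, 4.5 and 4.6 in wild type, and so was detected in both genotypes. It was higher in the mutant by 2.37 ± 0.06 (SE, adjusted p = 5.34e-06), or 5.16-fold. Ugt35E2 (older name Ugt86De) read 4.0, 4.1 and 4.2 in the mutant, against 2.3 on each wild-type array. Its mutant values lay just inside the filter, and its difference was 1.80 ± 0.06 (SE, adjusted p = 8.76e-06). Ugt35E2 passed the filter through mutant arrays only and so had to differ. Ugt35B1, first described as Ugt35b and known for its expression in the antenna, lay below the filter at 3.1, 3.3 and 3.5 in the mutant, against 2.4 on each wild-type array. It was not tested, and its mutant values stood above the wild-type values by 0.90 on average.

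Ugt35D1, of the same subfamily, had a nearly equal level in the genotypes. It read 11.3, 11.3 and 11.2 in the mutant, against 11.4, 11.4 and 11.3 in wild type, and the groups overlapped at 11.3. The difference of -0.10 ± 0.05 (SE, adjusted p = 0.112) did not pass the test. It passed as lower with array weights (adjusted p = 0.0203) and without wild-type replicate 3 (adjusted p = 0.0486). The sixth member of the subfamily, Ugt35E1, lay at the floor on all 6 arrays. The median difference over the 6 members was 1.35, with a range of -0.10 to 3.27.

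Subfamily 37 had 8 measured members, of which 4 were tested and called higher in the mutant, next to 24.9% higher and 41.7% lower among all tested genes. Ugt37C1 and Ugt37A2 passed the filter through mutant arrays only and so had to differ, which leaves Ugt37C2 and Ugt37D1. Ugt37A2 read 4.4, 4.6 and 4.6 in the mutant, against 2.9, 2.9 and 3.2 in wild type, a difference of 1.53 ± 0.11 (SE, adjusted p = 0.000171). Ugt37C2 (older name Ugt36Ba) read 5.4, 5.4 and 5.1 in the mutant, against 4.3, 4.3 and 4.6 in wild type. These groups did not overlap, and the difference was 0.90 ± 0.13 (SE, adjusted p = 0.00223), but after quantile normalization it shrank to 0.23 and missed the threshold (adjusted p = 0.152). Ugt37D1 (older name Ugt36Bc) read 8.1, 8.2 and 8.2 in the mutant, against 7.3 on each wild-type array. That narrow spread gave an adjusted p of 2.54e-05 for a difference of 0.87 ± 0.04 (SE). Its probe set is of the kind that can hybridize to more than 1 transcript, as are those of Ugt36E1 and Ugt50B3, while the other 32 probe sets are specific in design. Of the untested members, Ugt37B1 read 2.6, 2.2 and 2.4 in the mutant, against 2.2 on each wild-type array, and Ugt37A1, Ugt37A3 and Ugt37E1 lay at the floor throughout.

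Subfamily 36 held members called in both directions. Ugt36A1 is the gene Dorothy (Dot), known from its expression in blood cells, the lymph gland and pericardial cells. It read 4.5, 4.2 and 4.5 in the mutant, against 2.4, 2.5 and 3.4 in wild type. Wild-type replicate 3 was about 1 unit above the other wild-type arrays and still below every mutant array. Ugt36A1 was higher in the mutant by 1.63 ± 0.29 (SE, adjusted p = 0.00549), and the difference ran from 1.45 to 1.95 when each array was left out in turn. It had passed the filter through mutant arrays only and so had to differ. Ugt36D1 read 8.6, 8.5 and 8.5 in the mutant, against 7.7, 7.9 and 7.8 in wild type, a difference of 0.73 ± 0.06 (SE, adjusted p = 0.000349).

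Ugt36E1 had the largest decrease of the family. It read 2.7, 2.8 and 2.9 in the mutant, against 6.0, 5.7 and 5.7 in wild type. The mutant arrays thus lay not far above the floor, where every wild-type array gave a clear signal. The difference was -3.00 ± 0.10 (SE, adjusted p = 1.29e-05), or 8.00-fold lower. Ugt36D1 and Ugt36E1 are adjacent genes in the RefSeq order, and their opposite directions were compared after their values had been seen. On the same array, the level of Ugt36D1 minus that of Ugt36E1 was 5.9, 5.7 and 5.6 in the mutant, against 1.7, 2.2 and 2.1 in wild type. This ratio within an array does not depend on scaling between arrays by a constant. It differed by 3.73, given as a description with no test, since the pair was picked for its opposite directions and Ugt36E1 passed the filter through wild-type arrays only.

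Subfamily 49 was also divided. Ugt49B1 read 6.0, 5.5 and 6.1 in the mutant, against 4.9, 4.8 and 4.7 in wild type. The groups were separate, with mutant replicate 2 the nearest to wild type, and the difference was 1.07 ± 0.17 (SE, adjusted p = 0.00368). Ugt49B2 read 4.6, 4.2 and 4.4 in the mutant, against 5.3, 5.8 and 5.6 in wild type. It was lower in the mutant by 2.25-fold (-1.17 ± 0.16 on the log2 scale, SE, adjusted p = 0.00229). Ugt49C1 was at the floor in wild type and read 2.2, 2.3 and 2.4 in the mutant, and it was not tested.

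In subfamily 302, Ugt302C1 (older name Ugt86Da) read 7.4, 7.3 and 7.4 in the mutant, against 6.0, 5.3 and 5.5 in wild type. Both genotypes gave a clear signal, and the tight mutant arrays (7.37 ± 0.06, SD, n = 3) stood above the more scattered wild-type arrays (5.60 ± 0.36, SD, n = 3). The difference was 1.77 ± 0.19 (SE, adjusted p = 0.000801). Ugt302E1 read 2.3 on 1 mutant array and the floor on the others, and Ugt302K1 was at the floor throughout. Among subfamilies with a single measured member, Ugt317A1 (older name Ugt58Fa) read 5.9, 6.0 and 5.7 in the mutant, against 5.6 on each wild-type array. Its difference of 0.27 ± 0.08 (SE, adjusted p = 0.0317) was the smallest among the called genes. It lost the call in 5 of the 6 fits that left out 1 array (adjusted p up to 0.103) and turned to -0.17 after quantile normalization (adjusted p = 0.147). Ugt316A1 read 10.1, 10.1 and 10.0 in the mutant, against 10.4, 10.3 and 10.4 in wild type, and was lower by a small but separate margin (-0.30 ± 0.05, SE, adjusted p = 0.0032).

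**Figure D3:**
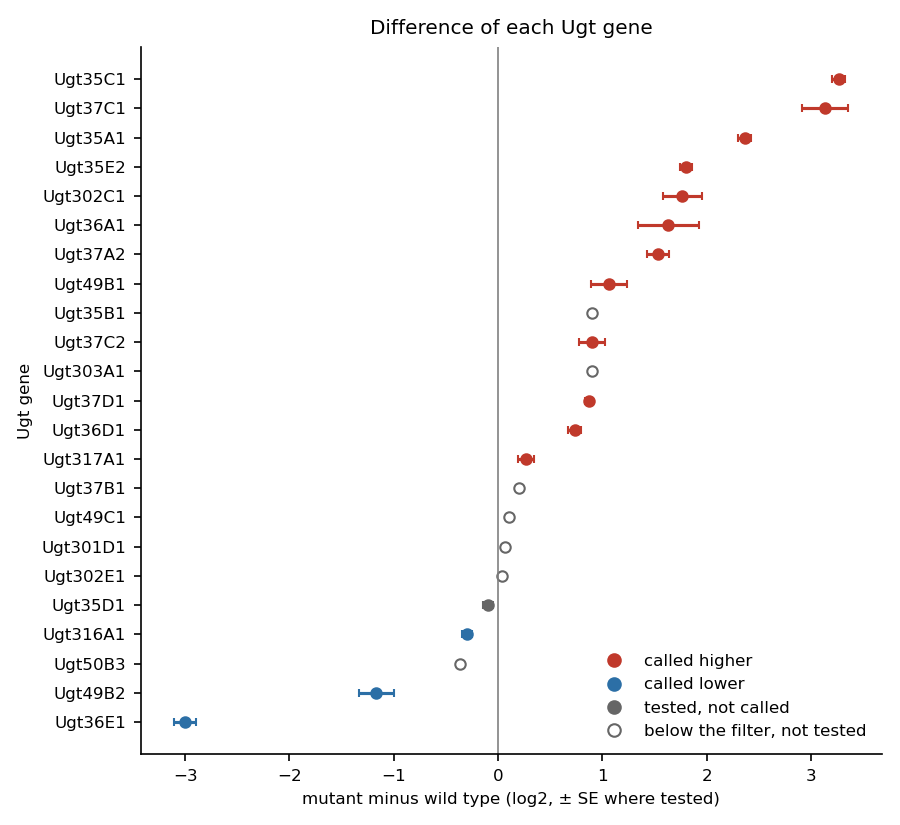
Mutant minus wild type (log2, horizontal axis) for the 23 Ugt genes not at the floor on all arrays, with the standard error for the tested ones. Filled red points were called higher, filled blue points lower, the grey point (Ugt35D1) was tested and not called, and open circles lay below the filter; the called genes run from 3.27 (Ugt35C1) to -3.00 (Ugt36E1).

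Of the 19 untested genes, 7 read above the floor on some array. Ugt303A1 (older name Ugt86Dh) read 3.9, 2.6 and 2.8 in the mutant, against the floor value of 2.2 on each wild-type array. Every mutant array was above wild type, but the mean difference of 0.90 rested largely on mutant replicate 1 and was 0.50 without it. Ugt301D1 read 3.4, 3.2 and 3.2 in the mutant, against 3.2 on each wild-type array, so the groups met. Ugt50B3, of a subfamily conserved across insects, read 3.0, 2.9 and 2.9 in the mutant, against 3.6, 3.0 and 3.3 in wild type, and the groups met at 3.0. The 12 genes at the floor on every array were Ugt35E1, Ugt36F1, Ugt37A1, Ugt37A3, Ugt37E1, Ugt302K1, Ugt303B1, Ugt303B2, Ugt303B3, Ugt304A1, Ugt305A1 and Ugt307A1. For these genes a floor reading says only that no signal above background was measured at this stage in either genotype.

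In the order of protein-coding genes of the RefSeq annotation, 23 of the 35 genes fell into 6 runs with at most 2 other genes between neighbours, and 12 stood alone. The longest run held 10 members, from Ugt35C1 to Ugt303A1. Of these, 4 were higher in the mutant (Ugt35C1, Ugt302C1, Ugt35E2 and Ugt35A1), and the other 6 were untested, with 3 of the 6 at the floor throughout. Ugt35C1 and Ugt35E2 had passed the filter through mutant arrays only, and 24.9% of all tested genes were higher. Some members at the floor lay between members called higher: among the Ugt genes of the run, Ugt35E1 came between Ugt302C1 and Ugt35E2. Ugt304A1, also at the floor, lay between Ugt35A1, called higher, and Ugt303A1, which was not tested. The other measured genes inside this run, mAcon2 and CG4757, lay at the floor on all arrays. Of the genes at its ends, SdhCL was at the floor too, and CG18577, next to Ugt303A1, read 2.8, 3.0 and 2.9 in the mutant, against 2.6, 2.4 and 2.5 in wild type and was not tested. The gene after it, curled (cu), which encodes the fly's Nocturnin, had a level of 7.50 ± 0.10 in mutant embryos and 6.53 ± 0.12 in wild-type embryos (SD, n = 3 each). The difference for cu was 0.97 ± 0.08 (SE, adjusted p = 0.000325).

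The shorter runs were mixed. In the run of Ugt37C2, Ugt37E1 and Ugt37D1, the outer genes were higher by 0.90 and 0.87 and the gene between them lay at the floor, and the nearest genes beyond the run on 1 side, Cyt-b5-r and CG17928, were not called (-0.13 and -0.07). In the run of Ugt36F1, Ugt36D1 and Ugt36E1, a floor gene, a higher gene and a lower gene followed each other. In the pairs Ugt49B1 with Ugt49C1 and Ugt37A2 with Ugt37A3, the first gene was higher in the mutant and the second was untested. Gyg, which encodes the glycogenin that primes glycogen synthesis and lies beside Ugt49B1, was higher by 3.30 ± 0.18 (SE, adjusted p = 6.33e-05), with levels of 7.10 in the mutant and 3.80 in wild type. In the run of Ugt303B3, Ugt303B1 and Ugt303B2 no member left the floor. Over all 6 runs, 21 genes of other families within or beside them were measured and 8 tested, of which 3 were higher and 1 lower. The 12 genes outside runs included 3 higher, 2 lower, 1 not called and 6 untested. Of the 3 higher, Ugt36A1 and Ugt37C1 had passed the filter through mutant arrays only. For both counts, the share among all tested genes was 24.9% higher and 41.7% lower.

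**Figure D4:**
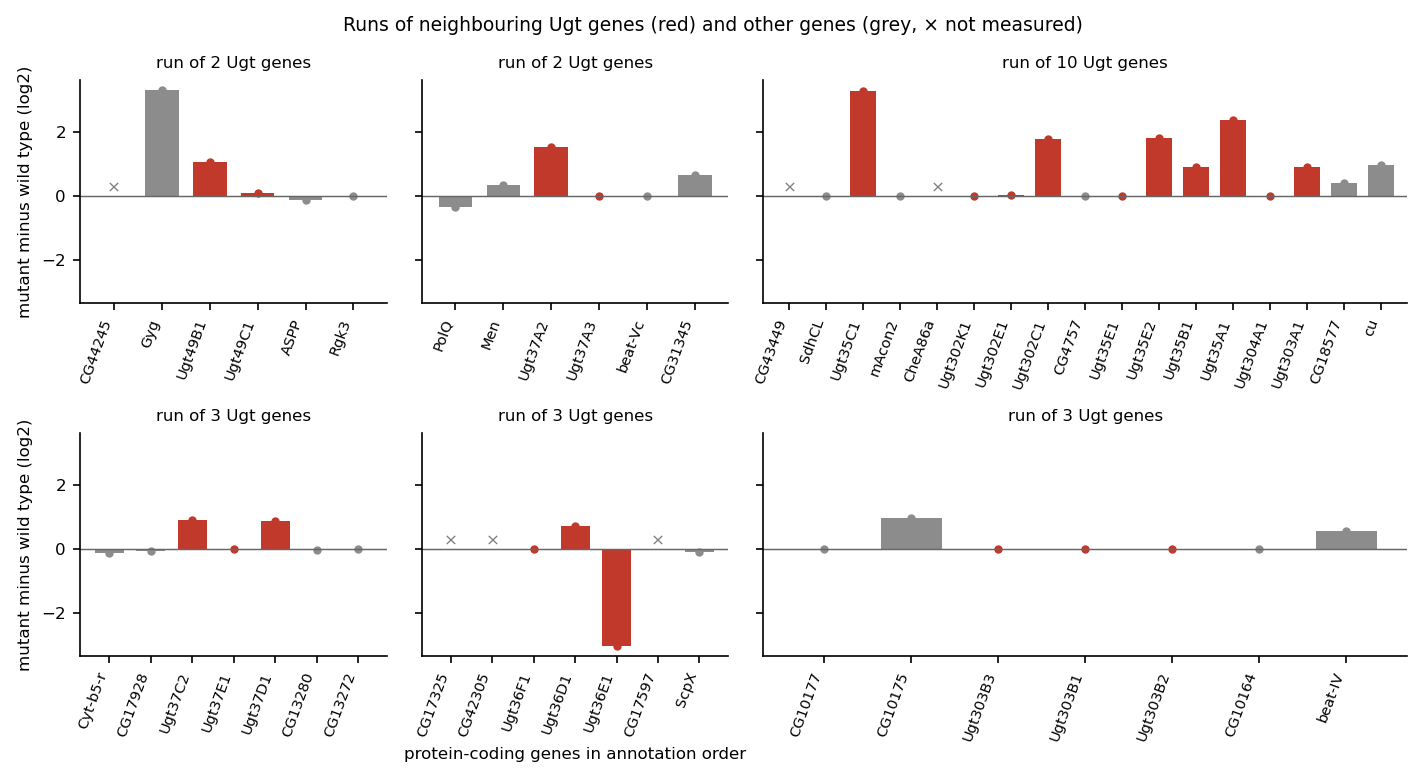
Mutant minus wild type (log2, vertical axis) for the Ugt genes (red) and other genes (grey) of each run of neighbouring Ugt genes, in annotation order, with the 2 nearest genes on each side; a cross marks a gene not measured by a probe set of its own. The run of 10 holds differences from 0 to 3.27, and the run with Ugt36E1 holds both 0.73 and -3.00.

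Ugt enzymes need a UDP-sugar, and the genes that make and carry UDP-sugars were read from a separate list. Of 15 listed genes 12 were measured and 11 tested, with 7 higher, 1 lower and 3 not called, and a median difference of 0.37. Among all tested genes 24.9% were higher and 41.7% lower, with a median difference of -0.13. Gfat1, the first enzyme of the hexosamine pathway that leads to UDP-N-acetylglucosamine, was higher by 2.77 ± 0.07 (SE, adjusted p = 4.53e-06). Efr, a nucleotide-sugar transporter of the endoplasmic reticulum and Golgi, was higher by 1.30 ± 0.09 (SE, adjusted p = 0.000137). Smaller increases were found for Pgm1 (0.50), Galt (0.50), mmy (0.40) and Gnpnat (0.33), which act in glucose, galactose and N-acetylglucosamine metabolism. UGP, which makes UDP-glucose itself, read 3.0, 2.9 and 3.2 in the mutant, against the floor on each wild-type array, and lay below the filter. The gene for the enzyme that oxidizes UDP-glucose to UDP-glucuronate, sgl, was not called (0.17, adjusted p = 0.0831).

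Among other transferases that use UDP-sugars, 12 of 14 listed genes were tested, with 2 higher, 8 lower and 2 not called, and a median difference of -0.30. Tested genes in general leaned the same way (24.9% higher, 41.7% lower, median -0.13). The higher ones were the chitin synthase gene kkv (1.43 ± 0.09, SE, adjusted p = 9.44e-05) and the Notch-modifying enzyme gene fng (0.60 ± 0.05, SE, adjusted p = 0.000248). Lower ones included GlcAT-S (-0.63), Glys (-0.33), brn (-0.53) and oxt (-0.37), which act in proteoglycan, glycogen and glycolipid synthesis. Other conjugating or hydrolysing detoxification enzymes were represented by 5 measured genes, of which both tested ones, the sulfotransferase gene St3 (3.17 ± 0.16, SE, adjusted p = 4.63e-05) and the epoxide hydrolase gene Jheh2 (0.97 ± 0.06, SE, adjusted p = 0.000127), were higher. St1, St2 and St4 lay at the floor throughout.

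Efflux and organic anion transporters, which can carry conjugates out of cells, had 11 of 14 genes tested, with 6 higher, 2 lower and 3 not called, next to 24.9% higher and 41.7% lower among all tested genes. Mdr65 was higher by 2.53 ± 0.07 (SE, adjusted p = 5.87e-06), Mdr50 by 2.00, Oatp33Ea by 1.37, Oatp33Eb by 0.90 and Mdr49 by 0.47, and Oatp26F was lower (-0.90, adjusted p = 0.00223). Of these, Mdr65, Mdr50 and Oatp33Eb passed the filter through mutant arrays only and so had to differ. The regulators of the response to foreign compounds differed little. The gene for Cnc, which turns on detoxification genes when released from Keap1, was higher by 0.30 ± 0.06 (SE, adjusted p = 0.00595), Keap1 was lower (-0.43 ± 0.09, SE, adjusted p = 0.00783) and ss was lower (-0.37, adjusted p = 0.0328). Hr96, maf-S and tgo were not called. These lists, like the family, were chosen with earlier results of these data known.

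Markers of tissues and stages were read beside the Ugt genes. Of 10 midgut markers, 8 were higher in the mutant, 1 was not called and 1 was untested, next to 24.9% higher and 41.7% lower among all tested genes. The summed linear level of the 10 markers was 3362 to 3463 on mutant arrays, against 545.2 to 571.3 on wild-type arrays. The digestive enzyme genes Mal-A3 (5.40), alphaTry (4.40) and Jon25Biii (4.37) were among them, while GATAe, also on the list, differed by -0.03 and was not called. All 11 measured genes of late embryonic muscle and cuticle were higher, with a median difference of 3.30, and summed to between 18384 and 19192 on mutant arrays and between 1969 and 2057 on wild-type arrays. Of the midgut markers 3, Mal-A3 among them, and of the muscle and cuticle genes 1, stayed below 4 on every wild-type array. Those of them that were tested passed the filter through mutant arrays only and so had to differ. Of 13 tested genes of the 6 to 8 h embryo, 2 were higher, 6 lower and 5 not called, next to 24.9% higher and 41.7% lower among all tested genes, with summed levels of 20985 to 21947 in the mutant, against 20717 to 22582 in wild type. The part that tissue content or developmental age had in the Ugt values was not tested.

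The other tissues known for Ugt expression gave mixed readings. Of 7 measured Malpighian tubule markers 4 were tested, of which 2 were lower (Lkr, -4.37, and Irk3, -0.57) and 2 not called, with summed levels of 468.2 to 515.0 in the mutant, against 838.4 to 888.7 in wild type. Among all tested genes 24.9% were higher and 41.7% lower, and Lkr passed the filter through wild-type arrays only and so had to differ. The 3 tubule markers below the filter averaged 3.57 to 3.77 in the mutant, against 2.53 to 2.80 in wild type. Of the 4 measured fat body markers, Fbp1 and Lsp2 lay at the floor on all arrays. Of the 2 tested, apolpp was higher by 0.37 ± 0.04 (SE, adjusted p = 0.000621) and srp was not called (0.10, adjusted p = 0.415). The summed levels of the fat body markers were 12116 to 12611 in the mutant, against 9767 to 10962 in wild type. The gene srp also counts among the genes of the 6 to 8 h embryo. Of 5 chemosensory markers 4, the olfactory co-receptor gene Orco among them, lay at the floor on all arrays, and Obp56d was higher by 5.13 ± 0.23 (SE, adjusted p = 2.96e-05), which made the summed level 257.2 to 312.4 in the mutant and 24.4 to 28.9 in wild type. Obp56d passed the filter through mutant arrays only and so had to differ.

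The direction of the smaller differences depended on how the arrays were made comparable. Centring each array on the median of its tested probe sets moved every Ugt gene by 0.10 and turned no sign among the called genes, while the split over all tested genes moved to 30.9% higher and 29.8% lower. On a scale that makes the Bacillus probe sets equal, the median difference of all genes was 1.39, and 92.9% of tested genes were higher and 0.6% lower. On that scale Ugt35D1 differed by 1.29, Ugt316A1 by 1.09 and Ugt49B2 by 0.22, all opposite in sign to the deposited scale. Every gene is raised by the same 1.39 there, so places relative to the median of all genes are kept by construction. Ugt36E1 was lower on all 4 scales, between -3.30 and -1.61, and Ugt35C1, Ugt37C1 and Ugt35A1 were higher on all 4, by at least 2.96, 2.70 and 1.96.

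**Figure D5:**
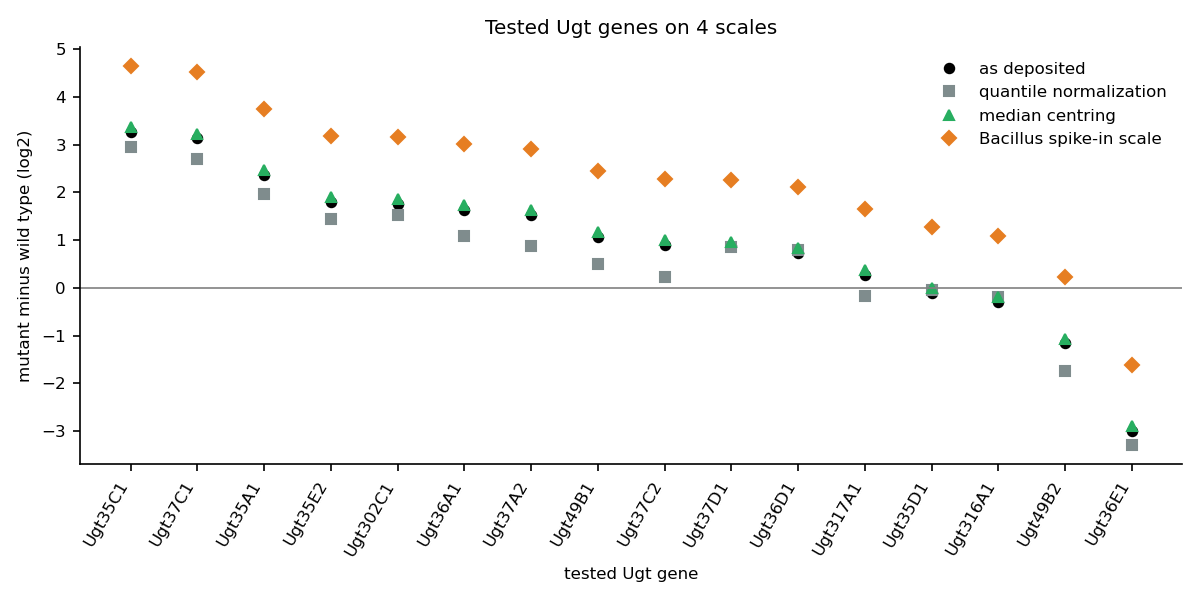
Mutant minus wild type (log2, vertical axis) for the 16 tested Ugt genes on the deposited scale (black circles), after quantile normalization (grey squares), after median centring (green triangles) and on the Bacillus spike-in scale (orange diamonds). The order of the genes is nearly kept, the spike-in scale lifts all of them, and Ugt36E1 is below 0 on all 4 scales.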

How the data were processed

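The deposited log2 levels came from GCRMA, as the submitters' processing notes name it. Their range showed the log2 scale, and the version and options are not given in the sources used here. Symbols came from the platform annotation, updated through RefSeq (Release 6 plus ISO1 MT), used for names and gene order alone. Of 18769 probe sets that are not controls, 13647 had 1 symbol, 402 several and 4720 none.

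Mutant minus wild type was fitted by lmFit and eBayes of limma 3.58.1 (R 4.3.3), with no block, on 8334 probe sets reaching 4 on at least 3 of 6 arrays, with Benjamini-Hochberg adjustment over all of them. Rounding left 24.1% of tested probe sets identical on all 3 arrays of a genotype (prior degrees of freedom 1.18). The labels do not say whether replicates came from separate collections, so p-values may measure technical spread only. The number of arrays limits the precision. No 2 arrays were identical: the closest pair agreed at 43.1% of tested probe sets.

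Values per array were given for every Ugt gene called or differing by at least 1, and all others were accounted for. Each pathway list gave up to 6 called genes of smallest adjusted p, and each marker list up to 4 genes. Neighbouring genes, and UGP and sgl, were named after their values were seen. Members and lists were chosen with earlier results of these data known. Alternatives covered the filter, the prior, array weights, scaling, rounding, the replicate number and each array left out.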

Additional observations from a re-analysis of the deposited data

How the results depend on the processing

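The direction and call of Ugt37C1, Ugt35A1, Ugt302C1, Ugt37D1 and Ugt36D1 held under all 16 alternatives, and those of Ugt35C1, Ugt35E2, Ugt36A1, Ugt37A2, Ugt49B1 and Ugt36E1 under all 15 that tested them. For Ugt37C1, Ugt35C1, Ugt35E2, Ugt36A1 and Ugt37A2, tested through mutant arrays only, and Ugt36E1, through wild-type arrays only, the filter had fixed the direction. Median centring and the spike-in scale raise every gene alike, so they could not turn the sign of a higher gene. A filter at 6 left 5 higher and 1 lower, because fewer genes were tested. Over the 6 fits without 1 array, 11 to 12 Ugt genes were called higher and 3 to 4 lower. With the replicate number as a replicate block, 11 were higher and 4 lower, Ugt317A1 missing the threshold (adjusted p = 0.0646) and Ugt35D1 passing it (adjusted p = 0.0178). Deviations of same-numbered arrays had correlations of 0.166, -0.015 and 0.271, against -0.294 to 0.197 for arrays of other numbers. These ranges overlapped, and the main fit did not take the numbers to pair the samples. Quantile normalization gave 10 higher and turned Ugt317A1 to -0.17 (adjusted p = 0.147). It also took Ugt49B1 to 0.51, with a call close to the threshold (adjusted p = 0.0484), and Ugt37A2 to 0.87, both under 2-fold. Median centring gave a median difference of 0.13. Genes at least 2-fold higher, 8 as deposited, numbered 6 after quantile normalization and 11 after centring. The Bacillus spike-in scale adds 1.39 to every gene by construction: it gave 1 lower call, 33 genes at least 2-fold higher, floor genes included, 1 at least 2-fold lower, and a median of 1.42, and it turned Ugt35D1 to 1.29 (adjusted p = 0.000192), Ugt316A1 to 1.09 (adjusted p = 0.0014) and Ugt49B2 to 0.22 (adjusted p = 0.512). Noise within the rounding step, an alternative added after seeing the data, gave 12 higher and 3 lower. Levels near the floor of 2.2 limit what the 19 untested genes can show.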
